A study of Mus musculus with 21 samples.

Results

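The genes of the translation machinery were examined in the mouse cortex after repeated head impact, as initiation, elongation and termination factors, cytoplasmic poly(A)-binding proteins and aminoacyl-tRNA synthetases. They were chosen by symbol alone: a gene entered when its GENCODE symbol began with Eif1 to Eif6, Eef1, Eef2 or Pabpc, was Etf1 or Gspt1, or followed the one-letter pattern of the synthetases. This gave 62 of the 5544 genes of the deposited table, from 110 protein-coding genes of the annotation that carry such a symbol. The other 48 are not analysed here, among them the eIF4E-binding proteins, the kinase genes Eif2ak2, Eif2ak3 and Eif2ak4, Pabpc4 and most mitochondrial synthetases.

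Male C57BL/6 mice of 12 weeks, given as C57Bl/6J in the study's methods and marked WT in the deposited table, received high-frequency head impact (HF-HI) or a sham procedure. HF-HI mice were anesthetized with isoflurane and impacted 5 times a day for 6 days, 30 impacts in all, and sham mice went through the anesthesia without impact. The cortex was taken 24 h after the last impact, and total RNA of 10 sham and 11 HF-HI mice was sequenced as one library per mouse after ribosomal RNA was removed. The values used are on a log2 scale after variance stabilization, and a difference between the groups on that scale is smaller than the log2 ratio of read counts for genes with few reads.

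Translation begins when eIF2 brings the initiator tRNA to the small ribosomal subunit, which eIF3, eIF1 and eIF1A prepare and the cap-binding eIF4 factors load onto an mRNA. eIF5 and eIF5B then allow the large subunit to join, eEF1A delivers each aminoacyl-tRNA, eEF2 moves the ribosome along by a codon, and eRF1 and eRF3 release the finished protein. Synthetases charge each tRNA with its amino acid. In neurons much of this machinery also lies in dendrites and axons, where synaptic activity alters it through phosphorylation of eIF2, eIF4E-binding proteins and eEF2, none of which RNA values can show.

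The start regions were searched for letters of sequences known from translation genes, and a few matches are shown for genes described below. Many mRNAs of the translation apparatus are of the TOP class, which begin with a C followed by a run of pyrimidines, read by LARP1 downstream of mTOR. A run of a C and at least 4 further C or T bases, preceded by A or G and beginning within 10 bases of an annotated start, was found in 16 of 62 start regions of the genes (25.8%) and in 22.9% of 32851 RefSeq mouse start regions of equal length, a share near that of the 62 regions. These 62 regions belong to 48 of the 62 genes, some of which have several annotated starts, and the other genes were not searched. In the regions shown, the run begins 5 bases before the annotated start in Eef1a1, 4 before it in Eif3f, 1 after it in Eif2s3y and 4 after it in Eif3l. These matches give letters near an annotated start and do not show that the mRNA begins with the run. The sequences below are from RefSeq on the GRCm38.p6 build, are written 5′ to 3′ on the strand of the gene, and have the pyrimidine run in capitals.
Eef1a1, minus strand, chr9:78481708-78481737: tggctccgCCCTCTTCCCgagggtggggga
Eif3f, plus strand, chr7:108934403-108934432: gttctaggCTCTCTCTCTTTCTCggcaaga
Eif3l, plus strand, chr15:79075219-79075248: ttcttccgCTCTCTCCCacgggcttctgga
Eif2s3y, plus strand, chrY:1010588-1010617: cacagccaCTTCCTTCTTTCgtgagcaaga

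The other sequence is the amino acid response element bound by ATF4, which drives synthetase genes during the integrated stress response. The letters TGATGNAA, searched on both strands from 250 bases before to 50 bases after the start, were found in 5 of the same 62 start regions (8.06%) and in 3.97% of all RefSeq start regions. The synthetase genes Hars, Lars, Nars, Rars and Wars had no region in this search. Those of Aars, Gars and Iars are shown with the element in capitals, which in each of them lies on the strand opposite to the gene. The remaining regions with these letters were those of Eef2k and Eif2s3x. A match gives the letters only and does not mean that a factor is bound.
Aars, plus strand, chr8:111033840-111033869: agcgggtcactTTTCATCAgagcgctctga
Gars, plus strand, chr6:55037960-55037989: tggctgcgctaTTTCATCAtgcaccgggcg
Iars, plus strand, chr13:49682126-49682155: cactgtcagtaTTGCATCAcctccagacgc

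Of the 62 genes, 44 differed between HF-HI and sham mice, 21 of them higher and 23 lower in HF-HI (limma's moderated test, two-sided, Benjamini-Hochberg adjusted p under 0.05 over all 5544 genes, which is what a called gene means here). This is 71.0% of the genes, against 66.3% of all genes called, with 33.9% higher and 37.1% lower against 32.6% higher and 33.6% lower. The share of changed genes was thus near that of the table, and the genes moved in both directions. Their median log2 difference was 0.0041 and their median absolute difference 0.14, against -0.0086 and 0.16 over all genes. At an absolute difference of at least 0.25, 7 were higher and 6 lower, against 987 higher and 446 lower of all 5544 genes. For 8 of the 62 genes the HF-HI and sham values did not overlap, which held for 13.5% of all genes. In these bulk samples, fewer cells of a type and less RNA per cell cannot be told apart.

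**Figure D1:**
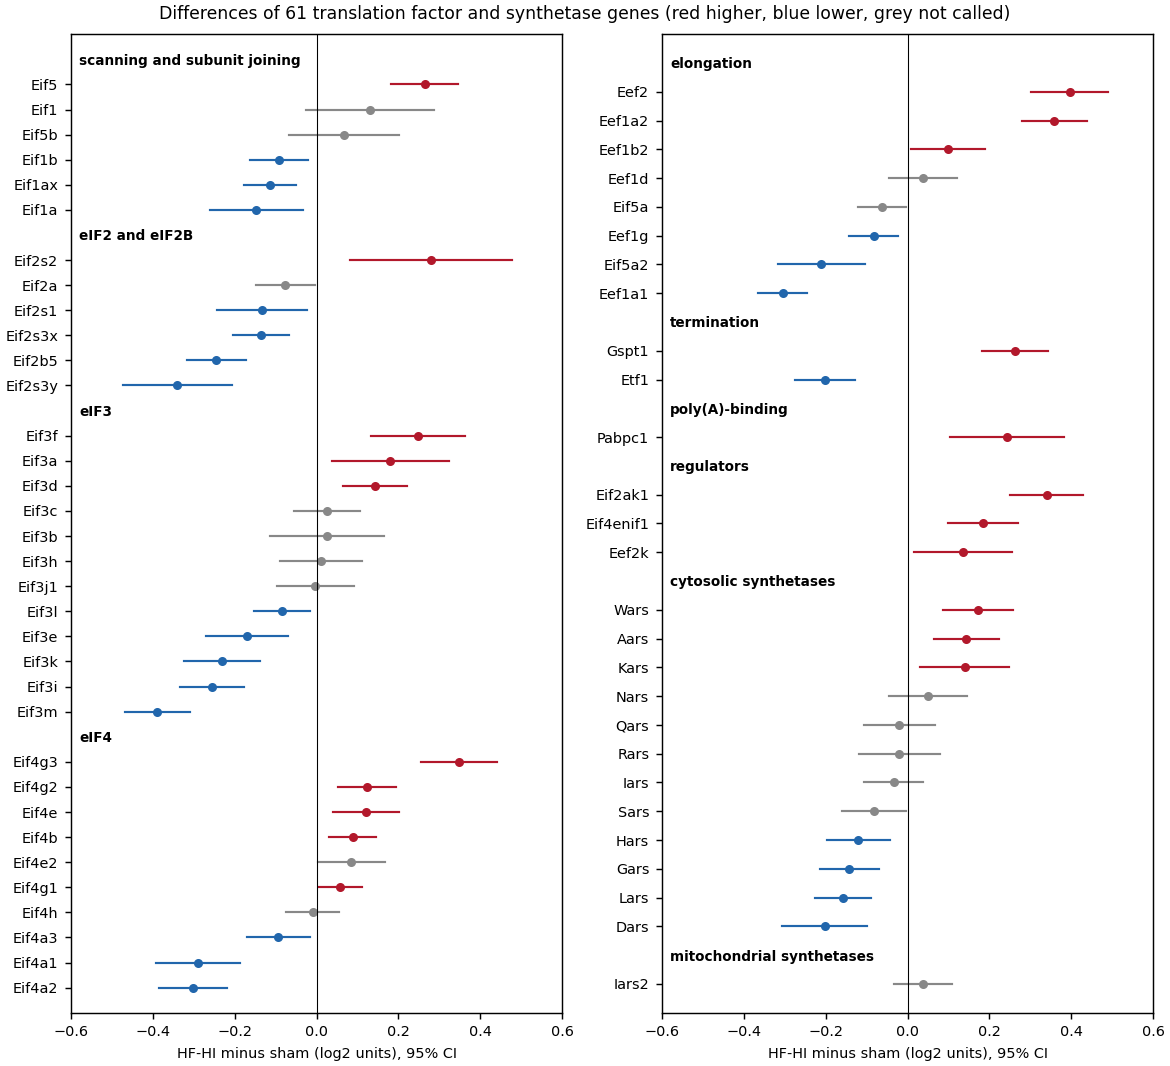
Difference between HF-HI (n = 11) and sham (n = 10) on the log2 scale with its 95% confidence interval, for 61 genes grouped by role, with Lars2 left out because of its width. Red points were higher and blue points lower with an adjusted p under 0.05, and grey points were not called. Every class of more than 3 measured genes holds both red and blue points.

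Properties of the libraries moved with the groups. The slope of each library on exonic GC content, computed after the mean of all 21 libraries was subtracted gene by gene, ranged from -0.23 to 0.0058 log2 units per 10% GC in sham and from -0.039 to 0.16 in HF-HI (permutation test with 100000 resamples, two-sided, p = 2e-05, the smallest the resamples can give). Its relation to Eef2 and to the pair of Eef1a1 and Eef1a2 within each group is given below. Its part in the differences between the groups was not tested. Among the 62 genes the difference rose with GC content with a Spearman's rho of 0.28, compared to 0.48 over 5539 genes, given as a description across genes that share libraries. With each library's GC trend removed, 35 of the 62 genes were called, 14 higher and 21 lower, and 30 of the original 44 kept their call. The median value of a library ranged from 9.675 to 9.716 in sham and from 9.730 to 9.760 in HF-HI, without overlap. With libraries centred on their medians 13 of the 62 genes were higher and 27 lower, and with quantile normalization 17 were higher and 25 lower. Centring ended the calls of 8 higher genes, Eef1b2, Eef2k, Eif3a, Eif4b, Eif4e, Eif4g1, Eif4g2 and Kars. In 5 HF-HI libraries, replicates 3, 4, 8, 9 and 11, the non-coding gene Gm42418, known for collecting ribosomal RNA reads, lay above its highest sham value. Without them 34 of the 62 genes were called, 16 higher and 18 lower, and those no longer called were Eef1g, Eef2k, Eif1a, Eif1b, Eif2s2, Eif3a, Eif3l, Eif4a3, Eif4g1 and Pabpc1.

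Among elongation factors, 3 of 8 rose and 3 fell in HF-HI mice, where 32.6% of all genes were higher and 33.6% lower. The changes were large for the most abundant of these factors. eEF1A has a broadly expressed form encoded by Eef1a1 (ENSMUSG00000037742, chr9:78478449-78489151 of GRCm38) and a form of neurons and muscle encoded by Eef1a2 (ENSMUSG00000016349, chr2:181147653-181157014). Eef1a1 had a lowest, median and highest value of 14.55, 14.65 and 14.74 in sham mice and of 14.20, 14.35 and 14.41 in HF-HI mice. Every HF-HI mouse lay below every sham mouse, with a log2 difference of -0.31 (SE 0.0289, limma adjusted p = 9.63e-09). Eef1a2 had values of 12.68, 12.88 and 12.97 in sham mice and of 13.10, 13.19 and 13.35 in HF-HI mice. Here every HF-HI mouse lay above every sham mouse, with a log2 difference of 0.36 (SE 0.0382, limma adjusted p = 4.92e-08). With the GC trend removed, the difference of Eef1a2, whose exonic GC content is 60.6%, was 0.056 and was not called (adjusted p = 0.379). That of Eef1a1 was -0.27 and was called (adjusted p = 1.34e-07).

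Within a library, the log2 value of Eef1a2 minus that of Eef1a1 was -1.80 ± 0.146 (SD, n = 10) for sham mice, compared to -1.14 ± 0.124 (SD, n = 11) for HF-HI mice, from values that are not corrected for transcript length. The distance between the paralogs narrowed by 0.66, and each of the 11 HF-HI mice lay above the highest sham mouse (permutation test, two-sided, adjusted p = 2e-04 over 10 pairs). Sham replicates 1, 2 and 3 ranged from -2.04 to -1.94 and the other sham mice, nearer to HF-HI, from -1.84 to -1.64. This within-library difference does not depend on the scaling of a library as a whole, and it was 0.32 with the GC trend removed (permutation test, adjusted p = 4.7e-04). Against the GC slope it had a Pearson's r of 0.345 and a Spearman's rho of 0.576 in sham (permutation tests, adjusted p = 0.324 and 0.107). In HF-HI these were -0.407 and 0.082 (permutation tests, adjusted p = 0.305 and 0.824). Without the 2 libraries farthest from the median slope, r was 0.316 in sham and, with the sign turned, 0.321 in HF-HI. Eef1a1 has many processed pseudogenes, and its value may depend on how the counting assigned the reads they share.

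Eef2 (ENSMUSG00000034994, chr10:81176631-81182498), which encodes the translocase eEF2, had values of 12.92, 13.16 and 13.32 in sham mice and of 13.39, 13.59 and 13.64 in HF-HI mice. The groups did not overlap, and the log2 difference of 0.40 (SE 0.0456, limma adjusted p = 1.42e-07) was the largest increase among the called genes. It was 0.19 and still called with the GC trend removed (adjusted p = 7.44e-05). Across the sham libraries Eef2 rose with the GC slope, with a Pearson's r of 0.712 (permutation test, adjusted p = 0.0349) and a Spearman's rho of 0.818 (adjusted p = 0.0120). Across the HF-HI libraries r was 0.775 (permutation test, adjusted p = 0.0345) and rho 0.555 (adjusted p = 0.107). There r was 0.079 without the 2 libraries farthest from the median slope. Eef2k, the kinase that inhibits eEF2, had values of 8.26, 8.56 and 8.66 in sham and of 8.42, 8.62 and 8.97 in HF-HI. These groups overlapped, and the difference of 0.14 (SE 0.0578, limma adjusted p = 0.0415) fell short of the threshold without any one of sham replicates 1, 4 and 6 or HF-HI replicates 2, 3, 4, 5 and 8, and with the GC trend removed (0.062, adjusted p = 0.330).

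The subunits of the exchange factor that reloads eEF1A did not move as one. Eef1b2 had values of 9.37, 9.55 and 9.72 in sham and of 9.48, 9.61 and 9.77 in HF-HI, a difference of 0.099 (SE 0.0434, limma adjusted p = 0.0487). With 1 library left out at a time it was called in 6 of 21 fits, those without sham replicate 4, 5, 6 or 7 or HF-HI replicate 4 or 9, and fell short of the threshold in the others. Eef1g was lower, by 0.083 (SE 0.0288, adjusted p = 0.0142), with values of 10.86, 10.97 and 11.07 in sham and of 10.81, 10.89 and 10.97 in HF-HI, and by 0.16 with the GC trend removed (adjusted p = 3.59e-05). Eef1d was not called (0.037, adjusted p = 0.422). eIF5A, which keeps ribosomes moving through proline-rich stretches, has paralogs in Eif5a and Eif5a2. Eif5a2 had values of 10.33, 10.47 and 10.75 in sham and of 10.15, 10.29 and 10.39 in HF-HI, a difference of -0.21 (SE 0.0509, adjusted p = 9.73e-04) that was -0.070 with the GC trend removed (adjusted p = 0.136). Eif5a had values of 10.38, 10.47 and 10.59 in sham and of 10.29, 10.43 and 10.51 in HF-HI, with a difference of -0.062 (SE 0.0288, adjusted p = 0.0606). Eif5a was called lower with the GC trend removed (-0.23, adjusted p = 7.23e-06), with libraries centred (-0.11, adjusted p = 0.00138) and with quantile normalization (-0.084, adjusted p = 0.0128). Eif5a2 fell relative to Eif5a by 0.15 (permutation test, adjusted p = 0.0347), but the sign of this difference turned with the GC trend removed (0.16, permutation test, adjusted p = 7.6e-04). It also fell short of the threshold without any one of sham replicates 1, 3, 4 and 6 or HF-HI replicates 3, 4 and 6.

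**Figure D2:**
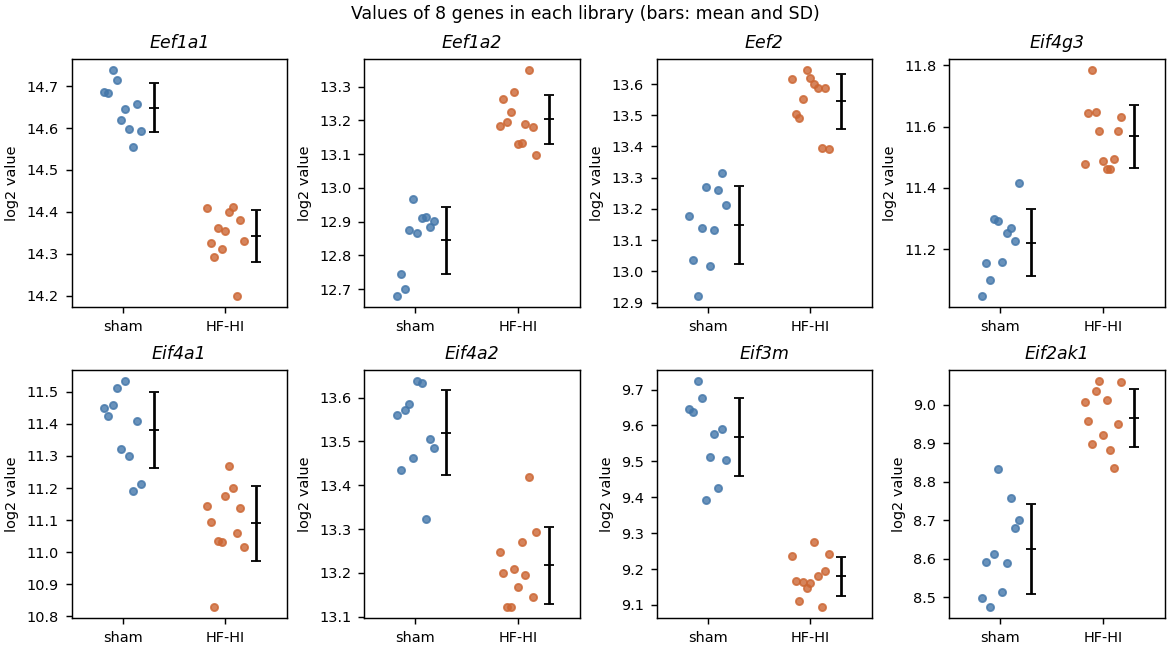
Deposited log2 values of 8 genes in each of the 10 sham and 11 HF-HI libraries, with the mean and SD beside the points. The groups do not overlap for Eef1a1, Eef1a2, Eef2, Eif4g3, Eif3m and Eif2ak1, and overlap in part for Eif4a1 and Eif4a2.

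The genes of the cap-binding complex parted by subunit. Of the 10 eIF4 genes, 5 rose and 3 fell, where 32.6% of all genes were higher and 33.6% lower. eIF4G is the scaffold that joins the cap to the ribosome, and its form encoded by Eif4g3 (ENSMUSG00000028760, chr4:137993022-138208508) had values of 11.05, 11.24 and 11.42 in sham and of 11.46, 11.58 and 11.78 in HF-HI. The groups did not overlap, with a log2 difference of 0.35 (SE 0.0452, limma adjusted p = 7.66e-07). Eif4g2, which encodes a scaffold that lacks the site for eIF4E, rose by 0.12 (SE 0.0343, adjusted p = 0.00307), from a range of 12.58 to 12.86 with a median of 12.73 in sham to a range of 12.75 to 12.95 with a median of 12.86 in HF-HI. Eif4g1, the main scaffold, had values of 11.32, 11.38 and 11.44 in sham and of 11.36, 11.45 and 11.56 in HF-HI, with a difference of 0.058 (SE 0.0251, adjusted p = 0.0442). That call was kept in 8 of 21 fits with 1 library left out, those without sham replicate 2, 3, 8 or 9 or HF-HI replicate 1, 2, 5 or 11, and the sign turned with the GC trend removed (-0.092, adjusted p = 0.0149). Eif4g3 rose relative to Eif4g1 by 0.29 (permutation test, adjusted p = 8e-04 over 10 pairs), and 6 of 11 HF-HI mice lay above the highest sham mouse. For Eif4g2 relative to Eif4g1 the difference was 0.065 (permutation test, adjusted p = 0.170), and 0.31 with the GC trend removed (permutation test, adjusted p = 1e-04).

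The helicase of the complex, eIF4A, unwinds the leader of the mRNA, and both its genes were lower in HF-HI. Eif4a2, the form most used in neurons, had values of 13.32, 13.53 and 13.64 in sham and of 13.12, 13.20 and 13.42 in HF-HI, a difference of -0.30 (SE 0.0402, limma adjusted p = 1.02e-06). Eif4a1 had values of 11.19, 11.42 and 11.53 in sham and of 10.83, 11.09 and 11.27 in HF-HI, a difference of -0.29 (SE 0.0497, adjusted p = 2.51e-05). For these paralogs 10 and 9 of the 11 HF-HI mice lay below the lowest sham mouse, and their within-library difference moved by -0.012 (permutation test, adjusted p = 0.809), with the opposite sign once the GC trend was removed (0.14, permutation test, adjusted p = 0.0183). Both genes host small nucleolar RNAs on the same strand, as do Eif4g2 and Eif5, and their reads may have been counted together. Eif4a3, whose product is the helicase of the exon junction complex, had values of 8.54, 8.72 and 8.85 in sham and of 8.52, 8.63 and 8.71 in HF-HI, a difference of -0.093 (SE 0.0373, adjusted p = 0.0308) that was lost without any one of sham replicates 3, 4 and 8 or HF-HI replicates 4 and 6, and that was -0.21 with the GC trend removed (adjusted p = 1.7e-04).

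Among the cap-binding proteins, Eif4e was higher by 0.12 (SE 0.0389, limma adjusted p = 0.00864), with values of 10.04, 10.23 and 10.41 in sham and of 10.24, 10.36 and 10.48 in HF-HI. Its relative Eif4e2, a repressive cap-binding protein, had values of 8.66, 8.75 and 8.99 in sham and of 8.74, 8.88 and 8.98 in HF-HI, and its difference of 0.085 (SE 0.0397, adjusted p = 0.0624) was not called. The pair's within-library difference moved by -0.036 (permutation test, adjusted p = 0.496), and by -0.17 with the GC trend removed (permutation test, adjusted p = 6.5e-04). Eif4b, which stimulates the helicase, was higher by 0.088 (adjusted p = 0.00778), and 0.041 with the GC trend removed (adjusted p = 0.212), and Eif4h, which does the same, differed by -0.0088 (adjusted p = 0.814). Eif4h was called lower once the GC trend was removed (-0.14, adjusted p = 2.4e-04).

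Of the 12 measured genes of eIF3, the largest initiation factor, 3 rose, 5 fell and 4 were not called. The share called, 66.7%, was near the 66.3% of all genes. Eif3m (chr2:104999656-105017080) had values of 9.39, 9.58 and 9.72 in sham and of 9.10, 9.17 and 9.27 in HF-HI, a difference of -0.39 (SE 0.0382, limma adjusted p = 1.59e-08) that was the largest decrease of the 62 genes. Eif3i (chr4:129591960-129600648) had values of 8.92, 9.01 and 9.20 in sham and of 8.65, 8.78 and 8.86 in HF-HI, a difference of -0.26 (SE 0.0376, adjusted p = 3.87e-06). For both genes every HF-HI mouse lay below every sham mouse. Eif3k had values of 9.01, 9.12 and 9.33 in sham and of 8.72, 8.95 and 9.05 in HF-HI, a difference of -0.23 (SE 0.0447, adjusted p = 1.04e-04), and 10 of 11 HF-HI mice lay below the lowest sham mouse. Eif3m and Eif3k encode subunits of the octameric core of eIF3 and Eif3i one that binds beside it. Eif3f, for another subunit of the core, was higher. Its values were 8.48, 8.65 and 8.84 in sham and 8.52, 8.89 and 9.08 in HF-HI, with a difference of 0.25 (SE 0.0553, adjusted p = 4.59e-04). The groups overlapped, with 9 of 11 HF-HI mice above the highest sham mouse. These 4 calls were kept with the GC trend removed, with differences of -0.29, -0.31, -0.35 and 0.20.

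The remaining eIF3 genes moved less. Eif3a, the scaffold subunit, had values of 10.41, 10.60 and 10.93 in sham and of 10.65, 10.79 and 11.14 in HF-HI, a difference of 0.18 (SE 0.0695, limma adjusted p = 0.0257) that was not called without sham replicate 1 or 2 and was 0.084 without the 5 libraries high in Gm42418 (adjusted p = 0.338). Eif3d, a subunit with its own cap-binding activity, had values of 8.51, 8.62 and 8.69 in sham and of 8.58, 8.81 and 8.84 in HF-HI, a difference of 0.14 (SE 0.0375, adjusted p = 0.0019), and of 0.024 with the GC trend removed (adjusted p = 0.551). The gene Eif3d shares 2151 exonic bases with Gm17638 on the opposite strand. Eif3e fell by 0.17 (adjusted p = 0.00364) and Eif3l by 0.083 (adjusted p = 0.0298), the latter not without sham replicate 2 or 3 or HF-HI replicate 4. The difference of Eif3e, with an exonic GC content of 36.8%, was -0.0060 with the GC trend removed (adjusted p = 0.888). The genes Eif3b (0.025, adjusted p = 0.753) and Eif3c (0.026, adjusted p = 0.574) were not called, nor were Eif3h and Eif3j1, the latter with a near-identical paralog, Eif3j2.

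eIF2 carries the initiator tRNA, and eIF2B is the exchange factor that recharges it. Of their 5 measured genes, 4 fell and 1 rose, where 33.6% of all genes were lower and 32.6% higher. Eif2a, counted in the same class, encodes the separate factor eIF2A and was not called (-0.076, limma adjusted p = 0.0575), though it was lower with libraries centred (-0.13, adjusted p = 0.00249). Eif2b5, the catalytic subunit of eIF2B and a gene of vanishing white matter disease, had values of 8.86, 8.94 and 9.07 in sham and of 8.62, 8.70 and 8.89 in HF-HI. All but 1 of the 11 HF-HI mice lay below the lowest sham mouse, with a difference of -0.24 (SE 0.0354, limma adjusted p = 3.13e-06), and of -0.37 with the GC trend removed. The other subunits of eIF2B are not analysed here. Eif2s2, the beta subunit of eIF2, rose by 0.28 (SE 0.0959, adjusted p = 0.0131), with values of 8.54, 9.13 and 9.38 in sham and of 9.14, 9.28 and 9.64 in HF-HI. The sham mice were split, with 8.63, 8.54 and 8.58 in sham replicates 1, 2 and 3 and 8.98 to 9.38 in the others. These replicates were also the lowest sham mice, farthest from HF-HI, in Gspt1 (9.41 to 9.51 against 9.62 to 9.76 in the others). The same held for Eef1a2 (12.68 to 12.75 against 12.86 to 12.97) and Eif4g3 (11.05 to 11.15 against 11.16 to 11.42). In Eef1a1 and Eef2 they did not lie apart from the other sham mice. What set those replicates apart was not tested. For Eif2s2 only 2 HF-HI mice lay above the highest sham mouse, and its call was lost without the 5 libraries high in Gm42418 (0.24, adjusted p = 0.0887). Eif2s1, the alpha subunit whose phosphorylation halts initiation, fell by 0.13 (adjusted p = 0.0303), a call lost without any one of sham replicates 6 and 7 or HF-HI replicates 3 and 4. With the GC trend removed its difference was -0.027 (adjusted p = 0.597).

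The gamma subunit is encoded on both sex chromosomes in mice, and all animals were male. Eif2s3x had values of 10.48, 10.57 and 10.69 in sham and of 10.35, 10.43 and 10.61 in HF-HI, a difference of -0.14 (SE 0.0332, limma adjusted p = 0.00107). Eif2s3y had values of 9.30, 9.56 and 9.69 in sham and of 8.89, 9.23 and 9.44 in HF-HI, a difference of -0.34 (SE 0.0643, adjusted p = 7.79e-05). Both copies were lower, and the Y-linked copy fell relative to the X-linked one by 0.20 (permutation test, adjusted p = 0.00893). With the GC trend removed that difference was -0.083 (permutation test, adjusted p = 0.190), where Eif2s3y has an exonic GC content of 35.4%, the lowest of the 62 genes.

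Of the 6 genes of scanning and subunit joining, 1 rose and 3 fell. The share called, 66.7%, was near the 66.3% of all genes. Eif5, which triggers GTP hydrolysis by eIF2 at the start codon, had values of 10.79, 10.90 and 11.07 in sham and of 11.003, 11.17 and 11.35 in HF-HI. The difference was 0.26 (SE 0.0398, limma adjusted p = 5.17e-06), and 10 of 11 HF-HI mice lay above the highest sham mouse. The forms of eIF1A were lower: Eif1a by 0.15 (SE 0.0545, adjusted p = 0.0212), from a range of 8.48 to 8.76 with a median of 8.70 in sham to a range of 8.25 to 8.75 with a median of 8.56 in HF-HI. Eif1ax had values of 11.29, 11.42 and 11.50 in sham and of 11.19, 11.31 and 11.40 in HF-HI, a difference of -0.11 (SE 0.0308, adjusted p = 0.00239) whose sign turned with the GC trend removed (0.013, adjusted p = 0.736). That of Eif1a was then -0.059 and not called (adjusted p = 0.345). Eif1b, a form of the start codon factor eIF1, had values of 9.18, 9.25 and 9.40 in sham and of 9.04, 9.18 and 9.25 in HF-HI, a difference of -0.092 (SE 0.0341, adjusted p = 0.0212) that was -0.23 with the GC trend removed (adjusted p = 2.72e-05). Its paralog Eif1 had values of 9.94, 10.35 and 10.77 in sham and of 10.26, 10.45 and 10.84 in HF-HI, a difference of 0.13 (SE 0.0755, adjusted p = 0.127), which was 0.23 and called with a covariate for relative depth (adjusted p = 0.00195). The within-library difference of this pair moved by -0.22 and missed the threshold (permutation test, adjusted p = 0.0506), which it passed with the GC trend removed (-0.24, permutation test, adjusted p = 0.0261) and with quantile normalization (-0.23, permutation test, adjusted p = 0.0358). Eif5b, the GTPase of subunit joining, was not called (0.067, adjusted p = 0.374), and shares 1643 exonic bases with Rev1 on the opposite strand. Eif5b was called higher with the GC trend removed (0.15, adjusted p = 0.0296) and with the depth covariate (0.14, adjusted p = 0.0320).

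**Figure D3:**
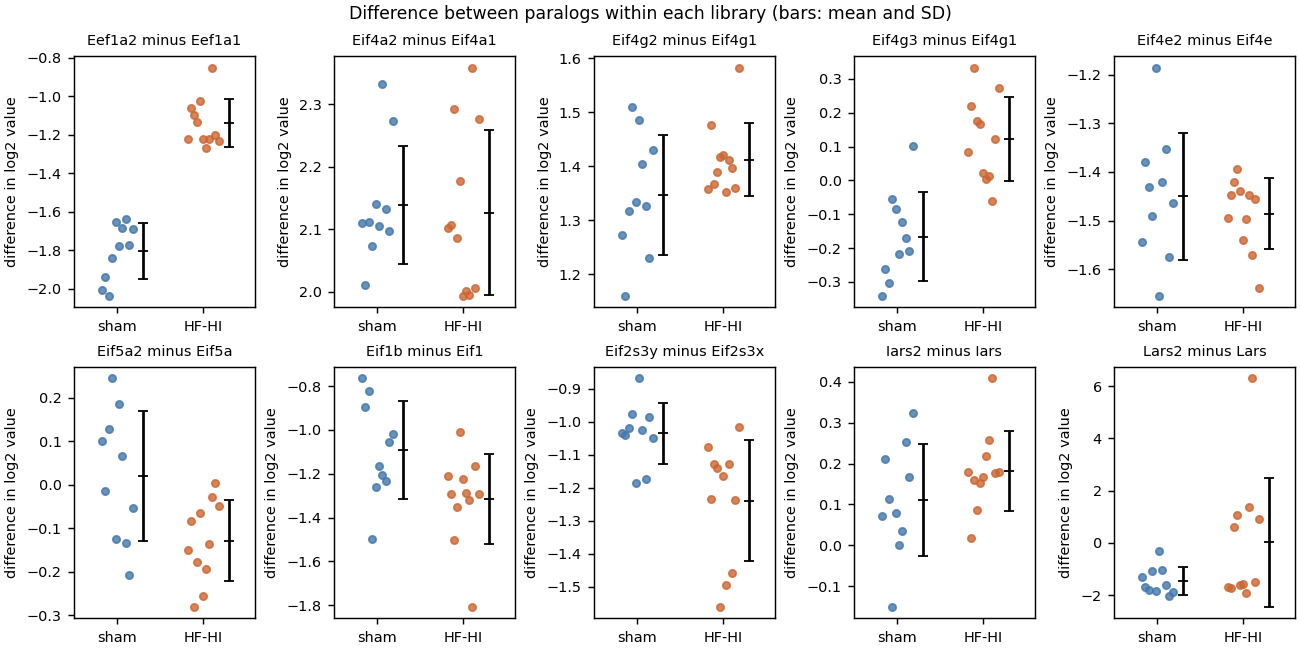
Difference between the log2 values of paralogs within each library for 10 pairs, in 10 sham and 11 HF-HI libraries, with the mean and SD beside the points. The groups are apart for Eef1a2 minus Eef1a1 alone, and 4 pairs had an adjusted p under 0.05 by permutation test.

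All 3 genes classed as regulators rose, where 32.6% of all genes were higher. Eif2ak1 (ENSMUSG00000029613, chr5:143817788-143904251) encodes HRI, the eIF2 kinase that senses low heme and mitochondrial stress. Its values were 8.48, 8.60 and 8.83 in sham and 8.84, 8.96 and 9.06 in HF-HI. The groups were apart, with a difference of 0.34 (SE 0.0431, limma adjusted p = 5.36e-07), which was 0.28 and called with the GC trend removed. The gene Eif2ak1 shares 487 exonic bases with Aimp2 and 172 with Ankrd61, both on the opposite strand. Eif4enif1, which encodes the shuttling protein 4E-T that takes eIF4E to sites of mRNA storage and decay, had values of 8.41, 8.57 and 8.78 in sham and of 8.68, 8.77 and 8.86 in HF-HI, a difference of 0.18 (SE 0.0412, adjusted p = 4.51e-04). The third was Eef2k, described above.

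Termination uses eRF1, which reads the stop codon, and the GTPase eRF3, and their genes moved apart. Etf1, for eRF1, had values of 9.72, 9.80 and 9.93 in sham and of 9.44, 9.61 and 9.74 in HF-HI, a difference of -0.20 (SE 0.0353, limma adjusted p = 3.09e-05), with 9 of 11 HF-HI mice below the lowest sham mouse. Gspt1, for eRF3, had values of 9.41, 9.67 and 9.76 in sham and of 9.81, 9.87 and 9.98 in HF-HI, a difference of 0.26 (SE 0.0389, adjusted p = 4.34e-06), and the groups did not overlap. The exonic GC contents of Etf1 and Gspt1 are 44.3% and 44.4%, and with the GC trend removed the differences were -0.15 and 0.31, both called. Pabpc1, for the main poly(A)-binding protein, was higher by 0.24 (SE 0.0673, adjusted p = 0.00297), with values of 9.65, 9.76 and 10.21 in sham and of 9.82, 10.11 and 10.26 in HF-HI. Only 2 HF-HI mice lay above the highest sham mouse, and without the 5 libraries high in Gm42418 the difference was 0.16 (adjusted p = 0.0828).

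Of the 14 synthetase genes 3 rose and 4 fell (50% called), where 37 of the other 48 genes (77.1%) and 66.3% of all genes were called. These differences in share were not tested, and no synthetase reached an absolute difference of 0.25 with a call. Those that rose were Wars (0.17, SE 0.0414, limma adjusted p = 9.31e-04), Aars (0.14, SE 0.0384, adjusted p = 0.00226) and Kars (0.14, SE 0.0524, adjusted p = 0.0223), which charge tryptophan, alanine and lysine tRNAs. Wars had values of 8.99, 9.22 and 9.31 in sham and of 9.15, 9.37 and 9.43 in HF-HI, with 9 of 11 HF-HI mice above the highest sham mouse. Aars had values of 10.51, 10.62 and 10.71 in sham and of 10.56, 10.73 and 10.89 in HF-HI, and Kars of 8.37, 8.65 and 8.84 in sham and of 8.60, 8.78 and 8.96 in HF-HI. In each of them the groups overlapped, and none of the 3 was called with the GC trend removed, at 0.035, 0.026 and 0.11. Aars shares 1326 exonic bases with Exosc6 on the same strand.

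Those that fell were Dars, Lars, Gars and Hars, for aspartate, leucine, glycine and histidine. Dars had values of 8.81, 9.06 and 9.23 in sham and of 8.60, 8.80 and 9.02 in HF-HI, a difference of -0.20 (SE 0.0504, limma adjusted p = 0.00127), which was -0.071 with the GC trend removed (adjusted p = 0.142). Lars had values of 9.06, 9.18 and 9.25 in sham and of 8.88, 9.02 and 9.14 in HF-HI, a difference of -0.16 (SE 0.0332, adjusted p = 2.6e-04). Gars had values of 10.41, 10.55 and 10.70 in sham and of 10.31, 10.40 and 10.48 in HF-HI, a difference of -0.14 (SE 0.0351, adjusted p = 0.00116). The groups overlapped in each of them, with 6, 8 and 6 of 11 HF-HI mice below the lowest sham mouse, and Hars fell by 0.12 (adjusted p = 0.0071). Sars, Iars, Rars, Qars and Nars were not called, with differences from -0.081 to 0.050, though Sars was called without sham replicate 7 or HF-HI replicate 2, 5 or 9. With the GC trend removed no cytosolic synthetase was higher, and Lars, Gars, Hars and Sars were lower. The genes whose start regions hold the stress element letters shown above thus differed in sign or call: Aars higher, Gars lower and Iars not called (-0.034, adjusted p = 0.400). Among the synthetase genes with other symbols, Eprs (-0.14, adjusted p = 0.00271) and Farsb (-0.14, adjusted p = 0.0033) were also lower, and Tarsl2 (0.014, adjusted p = 0.817) was not called.

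The synthetase genes measured for mitochondria alone were Iars2 and Lars2, and neither was called. Gars and Kars, counted above as cytosolic and both called, encode the cytosolic and the mitochondrial form. Iars2 had values of 9.28, 9.34 and 9.50 in sham and of 9.30, 9.40 and 9.53 in HF-HI, a difference of 0.038 (SE 0.0346, limma adjusted p = 0.342), and it shares 2034 exonic bases with Rab3gap2 on the opposite strand. The within-library difference between Iars2 and Iars moved by 0.071 (permutation test, adjusted p = 0.228). Lars2 (chr9:123366927-123462666) had values of 7.18, 7.49 and 8.75 in sham and of 7.19, 7.52 and 15.35 in HF-HI. The medians were close, while 5 HF-HI mice lay above the highest sham mouse, and the difference of 1.33 (SE 0.713, adjusted p = 0.102) was not called. The values of those libraries were 9.64, 10.01, 10.45, 15.35 and 9.77 in HF-HI replicates 3, 4, 8, 9 and 11, and the highest, in replicate 9, exceeded the sham median by more than any other value of the 62 genes. Without replicate 9 the difference was 0.70.

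The same 5 libraries were those above the sham range in Gm42418, whose values ran from 8.17 to 12.39 in sham and from 10.14 to 17.49 in HF-HI. The HF-HI libraries fell into separate clusters, 6 with Gm42418 from 10.14 to 10.76 and Lars2 from 7.19 to 7.52, and 5 with Gm42418 from 13.17 to 17.49 and Lars2 from 9.64 to 15.35, so no correlation over them is given. Across the 10 sham libraries Lars2 followed Gm42418 with a Pearson's r of 0.893 (permutation p = 0.0012, adjusted p = 0.0036) and a Spearman's rho of 0.842 (permutation p = 0.00318, adjusted p = 0.0120), adjusted over 6 relations computed. In sham r was 0.728 without the 2 libraries farthest from the median of Gm42418. Without the 5 HF-HI libraries the difference of Lars2 was -0.33 (limma adjusted p = 0.133). What sets Gm42418 apart in these libraries was not tested. The within-library difference between Lars2 and Lars moved by 1.49 and missed the threshold (permutation test, adjusted p = 0.0655). Its medians were -1.66 in sham and -1.49 in HF-HI, and without HF-HI replicate 9 it moved by 0.86.

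**Figure D4:**
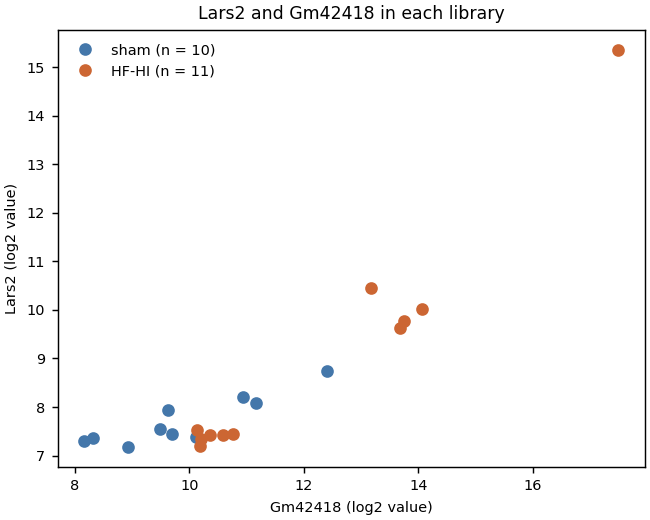
Lars2 against Gm42418, both as deposited log2 values, in each of the 21 libraries. Of the 11 HF-HI libraries 5 lie above the highest sham library on both axes, the farthest at 17.49 for Gm42418 and 15.35 for Lars2.

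Genes that act beside these factors were counted from lists. Beside each count stands the share over all genes, of which 66.3% were called, 32.6% higher and 33.6% lower. Of the targets of the integrated stress response 7 of 23 were measured, and 2 were higher. Atf4, the transcription factor at its center, had values of 9.15, 9.52 and 9.79 in sham and of 9.73, 9.84 and 10.04 in HF-HI, a difference of 0.34 (SE 0.069, limma adjusted p = 1.53e-04) that was 0.15 and not called with the GC trend removed (adjusted p = 0.0700). Slc3a2, an amino acid transporter chain, was higher by 0.23 (adjusted p = 4.52e-05). The amino acid synthesis genes Asns, Psat1 and Phgdh and the genes Cebpg and Slc7a11 were not called, at -0.12 to -0.038. Phgdh (-0.27, adjusted p = 1.92e-05) and Asns (-0.14, adjusted p = 0.0260) were lower with the GC trend removed.

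Of 8 measured factors of termination, ribosome recycling and poly(A) binding, 3 rose and 4 fell. Gcn1l1, the partner of the eIF2 kinase GCN2, rose by 0.30 (limma adjusted p = 1.65e-06) and Denr, a factor of reinitiation, by 0.28 (adjusted p = 0.00194). Abce1, which splits ribosomes after termination, fell by 0.27 (adjusted p = 1.05e-05) and Paip1, a partner of the poly(A)-binding protein, by 0.21 (adjusted p = 8.05e-04). Of 5 measured kinases of translation and their partners, Larp1 (0.29, adjusted p = 2.41e-05), Rptor (0.23, adjusted p = 3.59e-05) and Mtor (0.12, adjusted p = 0.00454) were higher, and Rps6kb1 (-0.040, adjusted p = 0.399) and Ppp1r15b (0.062, adjusted p = 0.0520) were not called. Of 3 mitochondrial translation factors, Guf1 (-0.38, adjusted p = 2.97e-10) and Gfm2 (-0.074, adjusted p = 0.0248) were lower. After removal of the GC trend Mtor (0.013, adjusted p = 0.662) and Gfm2 (-0.042, adjusted p = 0.196) were not called, and Rps6kb1 was higher (0.097, adjusted p = 0.0110). Mtor was not called with libraries centred either (0.070, adjusted p = 0.0740). Among the 10 genes known as TOP mRNAs, 5 rose and 3 fell, with Eef1a1 at the low end and Eef2 at the high end.

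**Figure D5:**
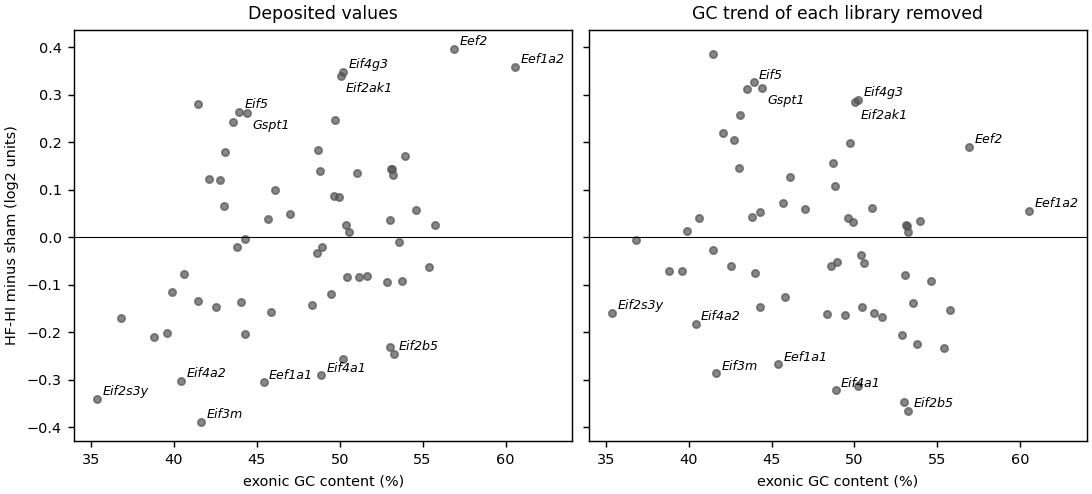
HF-HI minus sham difference on the log2 scale against exonic GC content for 61 genes, Lars2 left out, from the deposited values (left) and with the GC trend of each library removed (right). The point of Eef1a2 moves from 0.36 to 0.056, while Eif5, Gspt1 and Eif2b5 lie farther from 0 on the right.

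Markers of cell types moved as well, where 66.3% of all genes were called, 32.6% higher and 33.6% lower. Their part in these results was not tested. Of 10 neuronal markers 6 were higher and 1 lower, and their summed level ranged from 16.54 to 16.67 in sham and from 16.66 to 16.79 in HF-HI. Of 7 of 8 astrocyte markers measured 3 were higher and 1 lower, and of 6 oligodendrocyte markers 1 was higher. Of the microglial markers 1 of 7 was measured (Csf1r, higher by 0.13, limma adjusted p = 0.0184, and -0.0038 with the GC trend removed, adjusted p = 0.939). Of 2 endothelial markers 1 was higher and 1 lower, and neither the 2 hemoglobin genes nor Ttr of the choroid plexus was called. The neuronal genes with the largest differences were Slc17a7 (0.89) and Rbfox3 (0.83), while Map2 was lower (-0.097) and Gad1, Gad2 and Nefl were not called.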

How the data were processed

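Cortical total RNA of 10 sham and 11 HF-HI mice was sequenced from stranded libraries after removal of ribosomal RNA, with 6 libraries per pool, and the pool of each library is not named in the sources used here. The authors aligned reads to mm10 with STAR, quantified transcripts with eXpress and normalized them with DESeq2. The table the authors deposited holds variance-stabilized log2 values for Ensembl genes. Counts were not used here, so total depth is unknown, and the spread between mice sets the precision (median SD within a group 0.104). Depth relative to the other libraries, estimated from the spacing of low values, ranged from 0.580 to 1.26 in sham and from 0.548 to 1.64 in HF-HI (permutation test, two-sided, p = 0.105).

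GENCODE's annotation of GRCm38, the assembly of mm10, gave symbols, positions and exonic GC content, and RefSeq gave start regions on GRCm38.p6, where windows of 48 of the 62 genes were used. One sequence is not reported here. HF-HI was compared to sham with limma 3.58.1 (R 4.3.3, lmFit, eBayes with a mean-variance trend), fitted on all 5544 genes with no covariate. Paralogs were compared by their difference within each library with a permutation test of 100000 resamples, adjusted over 10 pairs. Python 3.11.15, numpy 2.4.6, scipy 1.17.1, pandas 2.3.3, statsmodels 0.14.6 and matplotlib 3.10.9 were used for the rest. The fit was tested on simulated data with independent genes, a small part of them shifted upward. Those data held no GC trend or shift of library medians between the groups, so the test cannot speak to these. The strand setting of the counting is not given in the sources used here, and genes that share exonic bases or near-identical copies may share reads.

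The genes, lists, classes and tests were chosen with earlier results of these data known. Named with full statistics were the 3 called genes with the largest difference in each direction and class, both genes of each paralog pair, and Eef2, Eef2k and the Eif2ak genes. Gm42418 was named after its values were seen. The GC trend of each library was removed with a lowess curve of span 0.3. Other alternatives were an adjusted p of 0.1, a minimum absolute difference of 0.25, eBayes without a trend, median centring, quantile normalization, omission of the lowest quartile of genes, the replicate number as a block, and omission of 1 library at a time. A covariate for relative depth and the omission of the 5 HF-HI libraries above sham in Gm42418 were chosen after seeing the data. The replicate numbers do not pair the mice, since they name no shared animal or batch.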

Additional observations from a re-analysis of the deposited data

How the results depend on the processing

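Requiring an absolute difference of at least 0.25 left 1433 of all genes and 13 of the 62 called, 7 higher and 6 lower, with 0 cytosolic synthetases, 2 genes of eIF2 and eIF2B, 2 of eIF3, 3 of eIF4, 3 of elongation, 0 of poly(A) binding, 1 regulator, 1 of scanning and 1 of termination. Centring gave 13 genes higher and 4 called genes of eIF4, and turned the uncalled Iars2 to -0.014. Among genes outside the lowest quartile, 15 were lower, with 3 of eIF2 and eIF2B, 3 of eIF3 and 0 regulators called, since the other genes were not tested. With the GC trend removed, 4 cytosolic synthetases were called, Eif1ax was 0.013 and Eif4g1 -0.092, and the paralog differences were 0.14 for Eif4a2 minus Eif4a1, 0.31 for Eif4g2 minus Eif4g1, -0.17 for Eif4e2 minus Eif4e, 0.16 for Eif5a2 minus Eif5a, -0.24 for Eif1b minus Eif1, -0.083 for Eif2s3y minus Eif2s3x, 0.13 for Iars2 minus Iars and 1.49 for Lars2 minus Lars. With that removal and the replicate block together, 2 scanning genes were called, Eif1ax was 0.019 and Eif4g1 -0.091. Quantile normalization gave -0.23 for Eif1b minus Eif1. The depth covariate gave 1 called mitochondrial synthetase, Lars2, at 2.18 (limma adjusted p = 0.00335). Without the 5 HF-HI libraries high in Gm42418, 0 poly(A)-binding and 2 scanning genes were called, and Lars2 was -0.33. The cause of these changes was not tested.

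Leaving out 1 library at a time gave 40 to 46 called genes, 17 to 21 higher and 21 to 25 lower. The paralog differences then ranged from -0.27 to -0.17 for Eif1b minus Eif1, from -0.035 to 0.0095 for Eif4a2 minus Eif4a1, from -0.17 to -0.12 for Eif5a2 minus Eif5a and from 0.86 to 1.68 for Lars2 minus Lars. Deviations of same-numbered libraries from their group means correlated from -0.31 to 0.36, so the numbers were not taken as pairs. With the replicate block 38 of the 62 genes were called, 18 higher and 20 lower, and 3497 of all genes.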
